A study of Mus musculus with 47 samples.

Results

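Siglech, Bst2, Pacsin1 and Cox6a2 are marker genes of plasmacytoid dendritic cells in the mouse. They were taken as the probe sets annotated to these single symbols, which gave 4 genes of the 18194 on the array with a single symbol and 6 probe sets of 45101. All 4 genes passed the filter on dim probe sets. The genes were chosen with their levels on these arrays known, so their levels are given as a description with no test.

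The study measured RNA on 47 Affymetrix arrays in 17 groups of cells purified from the bone marrow of adult C57Bl6 mice, 2000 cells for each sample. The groups used most here are ProB (2 arrays), CLP (2), PreB (4), LMPP (5), CD4 (2), NKmature (2), GM (2) and LTHSC (2). In common use LTHSC stands for long-term stem cells, LMPP for lymphoid-primed progenitors, CLP for common lymphoid progenitors and ProB and PreB for early B lineage stages. The labels spell out none of these names, give no sorting markers and name no treatment or genotype other than the strain. They call the arrays biological replicates without naming animals or pools, so p-values measure only the spread between these arrays, and precision is limited by the small number of arrays. Values are log2 of the deposited intensity. Levels of different probe sets cannot be compared with each other, because each has its own hybridisation strength.

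Plasmacytoid dendritic cells circulate through marrow, blood and lymphoid organs and release large amounts of type I interferon when endosomal Toll-like receptors meet viral nucleic acid. They form under the transcription factor Tcf4 and share several genes with lymphoid cells. Siglech encodes a sialic acid binding lectin that signals through the adaptor Tyrobp (DAP12) and dampens interferon release. Bst2 (tetherin) holds budding enveloped viruses at the cell surface and is also induced by interferon in many cell types. Pacsin1 encodes a membrane-bending adaptor best known from neurons. Cox6a2 encodes the heart and muscle isoform of a subunit of cytochrome c oxidase.

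The start regions of Siglech and Bst2 are shown because they differ in the letters relevant to the comparison with interferon-stimulated genes described further on. They run from 250 bases before to 50 after the annotated start in RefSeq, build GRCm38.p6, and are printed 5′ to 3′ on the strand of the gene. Siglech lies at chr7:55767934-55768233 on the plus strand and Bst2 at chr8:71537423-71537722 on the minus strand. Capitals mark matches to CAGGTG, the letters of an E-box of the kind that E proteins such as Tcf4 bind, and to a pair of GAAA runs separated by any 2 bases, the core of an interferon-stimulated response element. Both strands were searched.
Siglech: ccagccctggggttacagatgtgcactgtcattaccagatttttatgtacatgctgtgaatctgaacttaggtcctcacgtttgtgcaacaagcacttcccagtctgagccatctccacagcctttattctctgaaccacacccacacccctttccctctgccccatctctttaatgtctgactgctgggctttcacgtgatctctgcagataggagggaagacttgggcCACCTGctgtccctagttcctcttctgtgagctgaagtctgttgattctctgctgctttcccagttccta
Bst2: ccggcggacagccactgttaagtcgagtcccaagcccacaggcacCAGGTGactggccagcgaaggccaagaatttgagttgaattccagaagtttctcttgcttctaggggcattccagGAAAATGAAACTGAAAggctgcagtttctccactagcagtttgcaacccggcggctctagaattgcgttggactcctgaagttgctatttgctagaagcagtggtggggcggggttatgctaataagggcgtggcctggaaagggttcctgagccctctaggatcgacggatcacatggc
In Siglech the match CACCTG, the reverse complement of CAGGTG, lay at bases -20 to -15 from the start. The annotated Siglech gene begins at chr7:55768154, upstream of the start used here, so this match lies inside the annotated gene. In Bst2 CAGGTG lay at -205 to -200, and GAAAATGAAA (-130 to -121) and GAAACTGAAA (-124 to -115) overlapped each other. Of 32851 RefSeq start regions of this length, 20.2% held CAGGTG and 3.4% held the GAAA pair. The Pacsin1 region (chr17:27684989-27685288, plus strand) held a match to neither. That region lies inside the annotated gene (chr17:27655591-27711118), so it does not cover the gene's first base. No start region of Cox6a2 was searched. A match is a description of these letters only, and binding was not measured.

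The arrays labelled ProB went against that label in part of the B lineage markers. Of 9 tested genes of the B cell list, 3 (Ebf1, Pax5 and Vpreb1) were lower in ProB than in CLP, 4 (Spib, Fcrla, Cd79b and Cd72) were higher, and 8 were higher in PreB than in ProB, by the test described further on. Ebf1, a factor needed to enter the B lineage, stood at 7.55 on ProB replicate 1 and 3.85 on replicate 2, against 10.81 and 10.39 on CLP and 10.68 to 12.26 on PreB. Pax5, which fixes B cell identity, was at 4.18 and 3.45 in ProB, 4.76 and 5.26 in CLP and 4.66 to 6.04 in PreB. Ebf1 and Pax5 were thus lower on both ProB arrays than on any CLP or PreB array. The mean over the 9 measured genes of the B cell list was 7.84 and 7.0 on ProB replicates 1 and 2, between CLP (6.62 to 6.64) and PreB (9.33 to 10.47). That list holds Spib, which is also listed below among the plasmacytoid genes. Spib averaged 3.78 in CLP and was far higher in ProB. The place of ProB replicate 2 above CLP rests on Spib, so it gives no intermediate B lineage level for that array.

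Markers of natural killer cells were high on the same arrays. The mean of 9 such genes was 9.05 and 8.80 in ProB, 10.72 and 10.84 in NKmature, and 4.36 to 4.59 in CLP. The granzyme Gzma read 11.52 and 11.58 in ProB. The lineage factor Tbx21 read 8.22 and 7.42, with NKmature at a mean of 10.03. Among conventional dendritic cell genes, the defining factor Zbtb46 stayed at 4.04 and 4.21. Xcr1, which did not pass the filter, read 2.48 and 2.97. Itgax (9.30 and 10.09) and the lectin Clec10a (9.41 and 10.39) were well above CLP, but Itgax also read 9.05 and 9.09 in NKmature. Of the 8 tested genes of that list, 4 had their highest mean in ProB (Itgax, Clec10a, Batf3 and Cd209a). T cell genes averaged 6.13 and 6.26 in ProB, 3.89 to 4.03 in CLP, 3.45 to 4.01 in PreB and 9.95 to 10.17 in CD4, with the receptor subunit Cd3g at 6.91 and 5.44 in ProB. The plasma cell gene Jchain, which plasmacytoid dendritic cells also express, read 8.78 and 10.87. The immunoglobulin gene Igha, typical of plasma cells, read 12.3 and 13.37 in ProB. It read 5.56 on both CLP arrays and 4.55 and 4.63 in NKmature. Of 5 tested genes of the plasma cell list, 1 had its highest mean in ProB (Jchain). Neutrophil granule genes averaged 5.20 on ProB replicate 1 and 8.37 on replicate 2. In the text that follows, ProB means the libraries labelled ProB, and how far other cells in the sort contributed to any value was not tested. In such samples more cells of a type and more RNA per cell cannot be told apart.

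**Figure D1:**
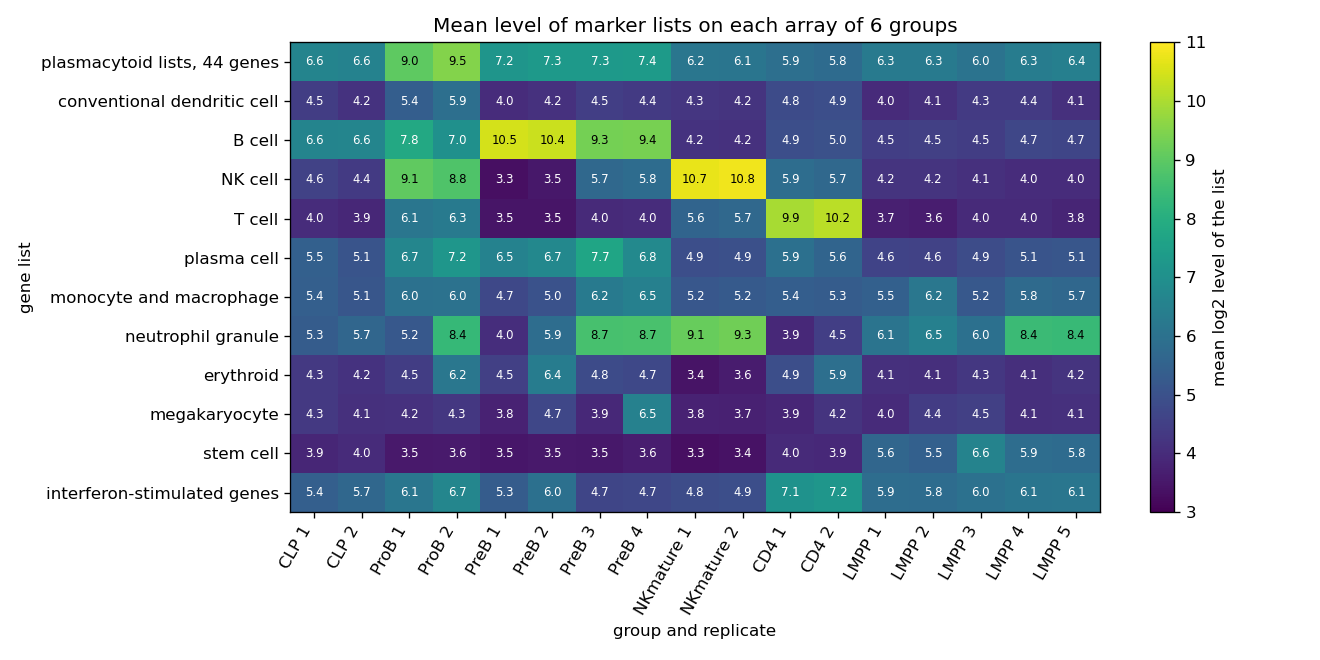
Mean log2 level of each gene list (rows) on each array of 6 groups (columns), with the value printed in the cell and shown by colour. The ProB columns carry the highest means of the plasmacytoid lists (9.03 and 9.53) together with high NK cell means.

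All 4 genes were highest in ProB, on both arrays and with every probe set, and no array of another group reached the lower ProB value. Siglech (probe set 1436131_at) read 11.05 and 11.78 on the ProB arrays. The other 45 arrays lay between 4.01 and 6.45 with a median of 4.43. The gap between the lower ProB array and the highest other array was 4.61 on the log2 scale, the widest of the 6 probe sets. The ProB mean lay 6.92 above the median of the other 16 group means on the log2 scale. That median, 4.50, is near the filter level of 3.889 and carries no detection call, so no fold is given.

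After ProB, Siglech had no clear second group. CLP followed at 5.24 and 5.75, then CD4 at 5.58 and 4.51, and PreB at 4.15, 4.18, 5.39 and 6.45. The ranges of CLP and CD4 overlapped, as did those of each further pair of neighbours in the order down to NKmature (4.10 and 4.21), and the 16 group means below ProB spanned 1.34. The highest array outside ProB was PreB replicate 4, and PreB replicates 3 and 4 both stood above replicates 1 and 2.

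Bst2 (1424921_at) read 10.81 and 11.99 in ProB, against 4.44 to 7.91 on the other arrays. CD4 came next at 7.43 and 7.91, above STHSC (7.08 and 6.84) without overlap, and ProB exceeded CD4 by 3.73 (13.3-fold). LTHSC followed at 6.40 and 7.23. Bst2 thus had a graded level below ProB, with stem cell groups near the top and IgM+SP lowest at 4.69 and 4.54.

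CLP was low in the order for Bst2, at 4.66 and 5.42. The order of Bst2 had a further step without overlap, between MkE (5.45 to 5.91) and NKmature (4.91 and 5.30). All other neighbours overlapped. The LMPP arrays split, with replicates 1 and 2 at 6.84 and 7.09 and replicates 3 to 5 at 5.06, 5.57 and 5.90.

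Pacsin1 was measured by a pair of probe sets. The brighter (1449381_a_at) read 8.29 and 8.88 in ProB and 5.96 and 6.74 in CD4, and the dimmer (1449380_at) read 7.29 and 8.96 in ProB and 5.15 and 4.82 in CD4. With both, CD4 was second and overlapped neither ProB nor the next group, IgM+SP. The ProB mean exceeded the CD4 mean by 2.23 (4.7-fold) with the brighter and by 3.14 (8.8-fold) with the dimmer.

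Outside ProB and CD4, Pacsin1 was dim. With the brighter probe set IgM+SP followed at 3.56 and 4.14, and the 15 group means, IgM+SP included, lay from 3.27 to 3.85, under the filter level of 3.889 that a gene had to pass in at least 1 group. Neighbours in that range overlapped, so no order among them can be read. CLP stood at 3.53 and 3.90.

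Cox6a2 gave the closest agreement between the ProB arrays, and CLP as its second group. Probe set 1417607_at read 11.71 and 11.77 in ProB and 7.80 and 9.20 in CLP. The third group, IgM+SP, read 6.37 and 6.51, and the lowest, NKmature, 5.24 and 4.94. CLP overlapped neither ProB, which was 3.24 higher (9.4-fold), nor IgM+SP, whose mean was 2.07 lower.

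The second Cox6a2 probe set (1457633_x_at) read 10.11 and 10.12 in ProB and 7.30 and 7.28 in CLP. In its order PreB came after CLP, with 4.30, 3.99, 6.12 and 6.31, where replicates 3 and 4 again stood above replicates 1 and 2. With 1417607_at the PreB arrays lay within 6.16 to 6.47, so that split was not seen there. LMPP arrays were at 6.07 to 6.86 and 3.51 to 4.90 by the 2 probe sets in turn. The suffix x marks a probe set whose probes may also match other transcripts.

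**Figure D2:**
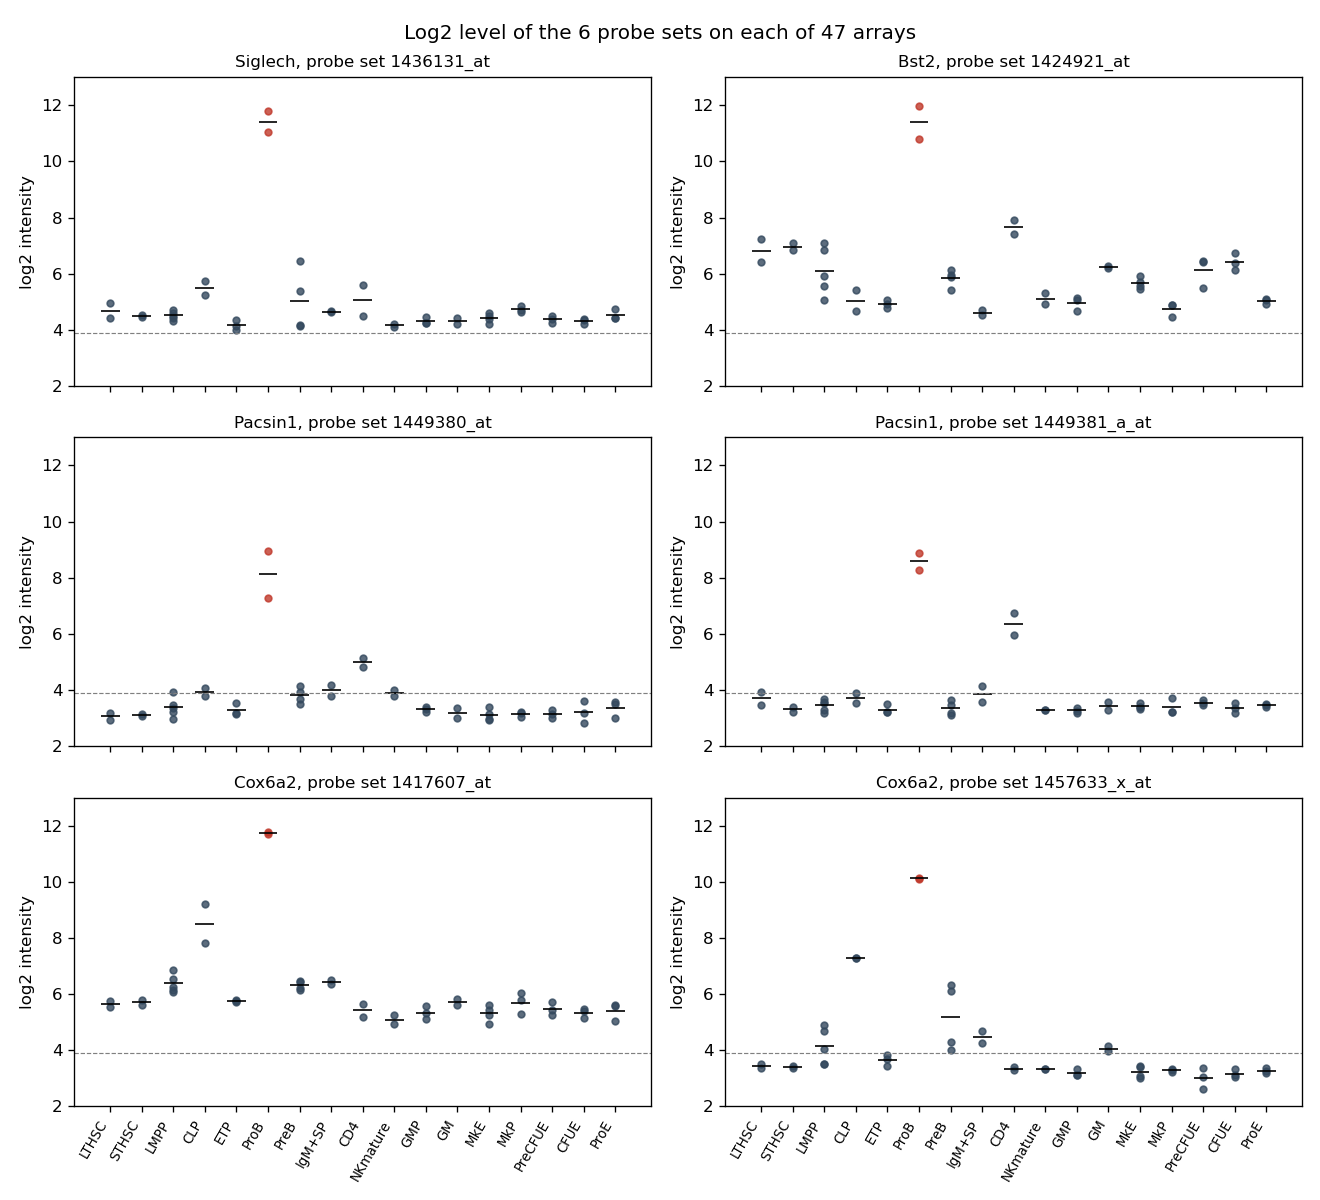
Log2 intensity of each of the 6 probe sets on every array (points) by group, with group means as bars and the filter level as a dashed line. In each panel both ProB arrays (red) lie above all other arrays, with CD4 second for Bst2 and Pacsin1 and CLP second for Cox6a2.

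A count over the whole array sets these values in context. Of the 13949 genes tested, 307 (2.2%) had both ProB arrays above all 45 others. Of 43 tested genes from lists of other genes known from plasmacytoid dendritic cells, 16 did (37.2%), among them Tcf4, Irf8, Irf7, Pld4, Ccr9, Lag3 and Cd209d. The group with the highest mean was ProB for 24 of the 43 listed genes (55.8%) and for 884 of all genes (6.34%). The conventional dendritic cell list had 4 of 8 tested genes highest in ProB (50.0%). A high share was thus not particular to the plasmacytoid lists.

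The 4 members shared the ProB peak but little else with some of their partners. Over the 17 group means, Siglech correlated with Cox6a2 (1417607_at) at r = 0.93, and r was 0.75 over the 16 groups without ProB. With Pacsin1 (1449381_a_at) Siglech gave 0.89, and 0.45 without ProB. With Bst2 it gave 0.84, and 0.10 without ProB. Bst2 and Cox6a2 went from 0.68 to -0.24 when ProB was left out, and Pacsin1 and Cox6a2 from 0.75 to -0.01 (from 0.85 to 0.24 with the dimmer Pacsin1 probe set). Below the ProB peak, Bst2 and Pacsin1 both had CD4 second. Their correlation was 0.87 (0.53 without ProB) with the brighter Pacsin1 probe set and 0.81 (0.16 without ProB) with the dimmer. These correlations describe group means that share amplification, array type and normalisation, and they rest largely on the ProB point.

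By the same measure over 13047 genes with a plain symbol, the profiles most like Siglech were the lectin Cd209d (r = 0.997), the pyrimidine-degrading enzyme Upb1 (0.994), the kallikrein Klk1b27 (0.988), the endothelial cadherin Cdh5 (0.986) and Ddn (0.978). For Cox6a2 they were Mycl (0.962), Cdh5 (0.959), Fam83f (0.959), the purine receptor P2ry13 (0.955) and Hs3st1 (0.951). Cd209d kept r = 0.92 with Siglech over the 16 groups without ProB, whereas Ddn fell to 0.30.

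For Pacsin1 the most alike were Xkrx (0.960), the sterol synthesis enzyme Mvd (0.950), the immunoglobulin gene Igha (0.950), Cd209a (0.944) and Jchain (0.929). CD4 was second for each of these 5 genes. Igha and Jchain are immunoglobulin-secretion genes typical of plasma cells. In CD4 Jchain read 7.46 and 7.25 and Igha 8.65 and 7.33, and their part in the CD4 level of Pacsin1 or Bst2 was not tested. Cd209a differed between the ProB arrays (4.72 to 8.39).

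For Bst2 they were Stat2, a factor of the interferon response (0.886), Col23a1 (0.880), Mvd (0.879), Pacsin1 itself (0.869) and Hrh1 (0.868). Ranked by the mean of the 4 correlations, Cd209d (0.913), Upb1 and Klk1b27 (both 0.911), Col23a1 and Cdh5 (both 0.908), Cd209a (0.903), Pgam2 (0.902), Rnd3, Ddn and Gpr35 (all 0.894) led. The ranks of the members among the genes most like each other ran from 4 (Pacsin1 for Bst2) and 8 (Siglech for Cox6a2) to 246 (Cox6a2 for Bst2).

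Since Bst2 is also an interferon-induced gene, it was set beside 12 measured interferon-stimulated genes (antiviral effectors such as the Ifit, Mx and Oasl families). The list averaged 6.13 and 6.66 on the ProB arrays, 7.09 and 7.21 in CD4 and 4.85 to 4.93 in NKmature. CD4, not ProB, was highest. Bst2 correlated with the list mean at 0.53 over 17 groups and 0.64 over the 16 without ProB. In LMPP the arrays with more Bst2, replicates 1 and 2, averaged 5.87 and 5.84 on the list, below the 5.97, 6.12 and 6.13 of replicates 3 to 5. Both ProB arrays lay far above the other arrays of similar list mean.

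**Figure D3:**
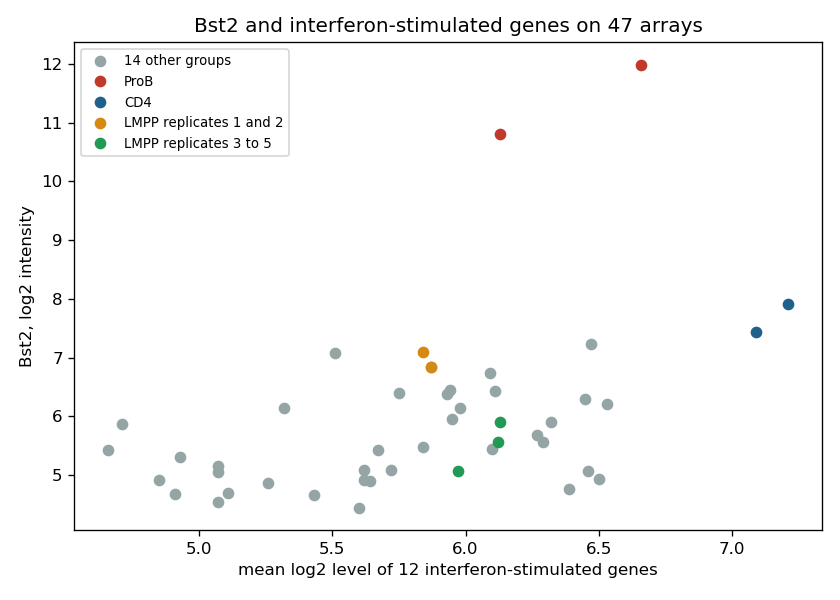
Bst2 log2 intensity against the mean log2 level of 12 interferon-stimulated genes on each of 47 arrays. ProB arrays (10.81 and 11.99) stand above all arrays of like list mean, and CD4 has the highest list means (7.09 and 7.21).

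Of 8 measured relatives of the 4 genes, 1 had its highest mean in ProB, the lectin Siglece at a dim 4.02. Cox6a1, the isoform of the same subunit found in most tissues, read 12.53 and 12.09 in ProB, 11.53 and 11.56 in CLP and a mean of 12.96 in NKmature. Pacsin3 stayed at 4.18 and 4.74 in ProB. Of the other sialic acid binding lectins, Siglecf read 2.64 and 2.89 in ProB and a mean of 8.16 in GMP. The B cell lectin Siglecg averaged 7.50 in ProB and 9.77 in PreB, and Cd22 averaged 7.13 and 8.70.

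The other plasmacytoid genes were then tested between groups with limma's moderated test. The groups are compared by their labels, and given the markers on the ProB arrays no order of development is read from these comparisons. The words rose and fell stand for higher and lower between labelled groups and describe no course in time. Calls needed both a change of at least 2-fold and an adjusted p (Benjamini-Hochberg, over all 13949 genes) below 0.05. The lists held 51 genes, of which 44 had a single-symbol probe set and 43 passed the filter. The interferon gene Ifna4 was under it. Comparisons that share a group share its arrays, so their counts are not independent of each other. In each value below, the difference is the first group minus the second on the log2 scale, ± the standard error.

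Between CLP and ProB, most plasmacytoid genes were higher in ProB, as the members were. Of 43 genes, 30 were higher in ProB, where 21.9% of all genes were called higher, and 1 was lower, where 7.59% were. The median difference was 2.92, against 0.08 over all genes. The 4 members differed by 6.36 (Bst2), 5.92 (Siglech), 4.87 (Pacsin1) and 3.24 (Cox6a2), as a description. When the arrays were quantile-normalised again, 52.4% of all called genes were higher in ProB, against 74.3% without it, and the median over all genes went from 0.08 to -0.07, with 27 plasmacytoid genes higher.

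Among transcription factors, 5 of 7 rose. Spib, which acts with Tcf4 in plasmacytoid cells and in B cells, rose most (7.05 ± 0.30, adjusted p = 1.9e-20). Irf7, the driver of interferon transcription, rose by 3.72 ± 0.27 and Irf8 by 3.10 ± 0.42. Tcf4 itself had a mean of 10.26 in CLP. It was higher in ProB by 1.41 ± 0.29 (adjusted p = 0.00014), or by 0.91 after quantile normalisation again, under the 2-fold limit. Zeb2 rose by 1.87 ± 0.37, but by 0.91 without CLP replicate 2. Bcl11a (0.36 ± 0.30) and the corepressor Cbfa2t3 (-0.10 ± 0.33) were not called.

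For nucleic acid sensing and interferon, 6 of 9 rose. The endolysosomal nuclease Pld4 led (5.93 ± 0.52), followed by the lysosomal transporter Slc15a4 (3.96 ± 0.47), Irf5 (2.83 ± 0.37), the Toll-like receptor chaperone Unc93b1 (2.50 ± 0.35) and the adaptor Myd88 (2.24 ± 0.22). Tlr7, a receptor for single-stranded RNA, rose by 1.79 ± 0.39, but by 0.75 (adjusted p = 0.14) without ProB replicate 2. Tlr9, the receptor for unmethylated DNA, was not called (-0.18 ± 0.28), nor was Ifnb1 (-0.77 ± 0.33), which read near the filter level in both groups. The Tlr9 probe set had its highest mean in MkP (5.86), against 5.65 in CLP and 4.95 in MkE. It carries no detection call, so a difference in Tlr9 could have been missed.

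All 9 surface receptors were called, 8 higher. The chemokine receptor Cxcr3 (6.07 ± 0.25), the lectin-like receptor Klra17 (5.70 ± 0.40) and the inhibitory receptor Lair1 (5.23 ± 0.50) led. Cd209d rose by 3.92 ± 0.26, Ly6d by 3.27 ± 0.50 and Lag3 by 2.92 ± 0.30. The homing receptor Ccr9 rose by 3.41 ± 1.28 (adjusted p = 0.029), with adjusted p from 0.082 to 0.10 when any 1 of the 4 arrays was left out. The phosphatase Ptprs passed narrowly (1.02 ± 0.37) and lost its call without any 1 of the 4 arrays (0.94 to 1.10, adjusted p 0.056 to 0.11), and it was -0.15 with the mean of its probe sets. Flt3, the receptor for the cytokine that dendritic cells need, was the gene that fell (-1.90 ± 0.40). With the sex class as a block Flt3 (-0.75) and Ly6d (0.83) lost their calls.

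Of the signalling partners of Siglech, 2 of 6 rose. Tyrobp, the adaptor that carries the Siglech signal, rose by 5.72 ± 0.41 to a mean of 12.79, and Pik3ap1 by 1.83 ± 0.34. The kinases and linkers shared with the B cell receptor, Syk (0.25 ± 0.33), Blnk (0.57 ± 0.41), Btk (0.89 ± 0.42) and Plcg2 (-0.52 ± 0.29), were not called.

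In the list of secretion and other marker genes 9 of 12 rose, led by the phospholipid transfer protein Pltp (8.24 ± 0.33, adjusted p = 9.8e-21), the protease Ctsl (5.78 ± 0.59), Upb1 (5.41 ± 0.30) and the sodium pump subunit Atp1b1 (5.10 ± 0.39). Klk1 (-0.20 ± 0.26), Plac8 (0.64 ± 0.25) and Paqr5 (0.58 ± 0.24) were not called. Markers of other cells also stood higher in ProB than in CLP, with all 9 tested genes of the NK cell list called (median 4.37) and 7 of 9 of the T cell list (median 2.26). Their part in these differences was not tested. No CLP array shares its class by the transcripts Xist and Eif2s3y, which mark the sex of the animals, with a ProB array, so sex and group cannot be told apart here. Arrays that carry both transcripts form a class of their own. In a fit of the ProB and CLP arrays alone, with fewer arrays to estimate the spread, Zeb2, Tlr7 and Ptprs lost their calls (adjusted p = 0.077, 0.096 and 0.062).

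Between ProB and PreB, all tested surface receptors were lower in PreB, and 3 of the 6 signalling partners were higher. Of 43 genes, 25 were lower in PreB, where 9.13% of all genes were, and 3 were higher, where 11.2% were. The median difference was -2.32, against -0.05 over all genes. The members differed by -6.37 (Siglech), -5.55 (Bst2), -5.42 (Cox6a2) and -5.23 (Pacsin1). All 9 NK cell list genes and 7 of 9 T cell list genes were lower in PreB as well (medians -4.49 and -2.69). With PreB replicates 3 and 4 left out, which also keeps to arrays of the same sex class, 25 were lower, 24 of them among the 25 of the full fit, and 5 were higher.

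All 9 surface receptors were lower in PreB, with Cxcr3 (-5.88 ± 0.22), Ccr9 (-5.15 ± 1.11) and Klra17 (-5.11 ± 0.34) at the front. Ly6d was among them (-1.16 ± 0.43), but it was 0.06 (adjusted p = 0.91) with PreB replicates 3 and 4 left out. Ptprs was -0.95 with the mean of its probe sets, under the 2-fold limit. Of transcription factors 4 of 7 fell, Irf7 (-3.83 ± 0.23), Bcl11a (-2.94 ± 0.26), Tcf4 (-2.36 ± 0.25) and Irf8 (-2.32 ± 0.36). Spib had a mean of 11.37 in PreB (0.54 ± 0.26, not called). In sensing, Pld4 (-4.64 ± 0.45) and Tlr7 (-2.91 ± 0.34) fell, and the other 7 were not called. Of secretion and marker genes 9 of 12 fell, among them Pltp (-6.31 ± 0.29), Upb1 (-5.44 ± 0.26) and Ctsl (-4.40 ± 0.51).

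The 3 genes that rose were the linker Blnk (1.60 ± 0.36), Syk (1.37 ± 0.29) and Btk (1.18 ± 0.36), all of which act downstream of the B cell receptor as well as of Siglech. Without ProB replicate 1 none of the 3 was called (Blnk 1.04, Syk 0.95 and Btk 0.98). In a fit of these groups alone Syk and Btk lost their calls (adjusted p = 0.11 and 0.26), as did Ccr9 and Ly6d (0.19 and 0.45), and Syk was 0.75 with the mean of its probe sets. The adaptor Tyrobp fell by 4.59 ± 0.35.

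Because NK genes were high in ProB, ProB was also compared with NKmature, a choice made after those levels had been seen. Of 43 genes, 31 were higher in ProB, where 8.7% of all genes were, and 1 was lower, where 14.4% were. The median difference was 2.70, against -0.01 over all genes. Of the B cell list, which holds Spib, 7 of 9 tested genes were higher in ProB and 0 lower (median 3.12). Of the interferon-stimulated genes 7 of 12 were higher and 2 lower (median 1.03). Of the plasma cell list 3 of 5 were higher and 1 lower (median 2.87). Of the NK cell list 6 of 9 were lower (median -1.57). A high share was thus not particular to the plasmacytoid lists, and the part of other cells was not tested. The members differed by 7.26 (Siglech), 6.65 (Cox6a2), 6.29 (Bst2) and 5.29 (Pacsin1), and all NKmature values of the members lay at 3.29 to 5.30.

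All 7 transcription factors were higher in ProB than in NKmature, from Spib (7.70 ± 0.30) and Bcl11a (7.03 ± 0.30) to Zeb2 (1.68 ± 0.37). Cxcr3 (-0.09 ± 0.25) and Klra17 (0.26 ± 0.40), which led the surface receptors in the comparison with CLP, were not called here, and neither were Tyrobp (0.60 ± 0.41) and the steroid enzyme Hsd11b1 (-0.23 ± 0.36). Those 4 genes stood at means of 8.66 to 12.19 in NKmature. Ccr9 (8.15 ± 1.28), Ctsl (7.82 ± 0.59), Nucb2 (7.34 ± 0.38), Rnase6 (7.15 ± 0.32), Pld4 (7.04 ± 0.52) and Ly6d (6.91 ± 0.50) were higher by the most apart from the factors. Pik3ap1 was lower (-1.88 ± 0.34), but by less than 2-fold with the mean of its probe sets (-0.40) and with the sex block (-0.46). ProB and NKmature share no sex class. The ProB arrays carry Xist alone, and the NKmature arrays carry both Xist (8.44 and 8.81) and Eif2s3y (8.79 and 8.53).

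**Figure D4:**
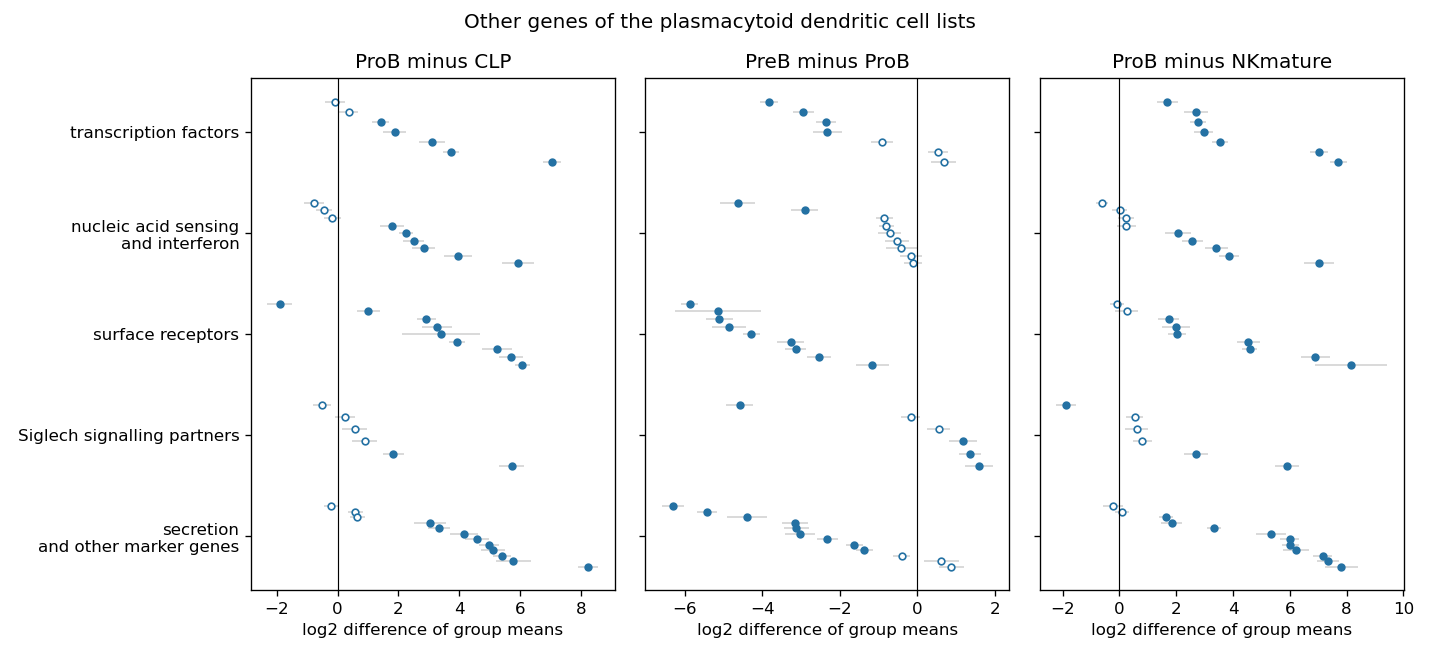
Log2 difference of group means (x axis, ± standard error from limma as grey bars) for the 43 tested plasmacytoid genes by list, in 3 comparisons that share the ProB arrays. Filled points were called and open points were not, and most filled points lie above 0 for ProB minus CLP and ProB minus NKmature and below 0 for PreB minus ProB.

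Fewer of these genes were called between groups other than ProB than in the comparisons with ProB. Between LTHSC and LMPP, 9 of 43 were higher in LMPP, a larger share than the 4.81% of all genes, and 1 was lower (7.66% of all genes). Irf8 (4.23 ± 0.35), Flt3 (3.10 ± 0.34), the calcium-binding protein Nucb2 (2.34 ± 0.32), Tyrobp (2.31 ± 0.34) and Tlr7 (2.17 ± 0.33) rose most, with Plac8, Pik3ap1, Atp1b1 and Blnk after them. Ctsl was lower (-2.23 ± 0.49), with -1.64 (adjusted p = 0.069) without LTHSC replicate 2. Pik3ap1, Atp1b1 and Blnk lost their calls without LTHSC replicate 1 (0.89, 1.08 and 1.26), as did Blnk and Pik3ap1 with the sex block (0.86 and 0.93). Atp1b1 (0.81), Pik3ap1 (0.73) and Tlr7 (0.97) fell under the 2-fold limit with the mean of their probe sets. Of the members, Cox6a2 differed by 0.75, Siglech by -0.17, Pacsin1 by -0.26 and Bst2 by -0.73.

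Between LMPP and CLP, 4 of 43 were higher in CLP (3.14% of all genes) and 4 lower (18.1%), with a median difference of 0.36 against -0.10. Blnk (4.03 ± 0.34, adjusted p = 1.9e-11) and Ly6d (3.38 ± 0.42), which mark lymphoid progenitors on the way to B cells, rose most. Mzb1, a chaperone of secretory B cells and plasmacytoid cells, rose by 1.38 ± 0.44 (0.95 without CLP replicate 1), and Kmo by 1.13 ± 0.38 (-0.14 without CLP replicate 1). Slc15a4 (-1.95 ± 0.39), Myd88 (-1.31 ± 0.19), Lair1 (-1.25 ± 0.42) and Btk (-1.16 ± 0.35) fell, the last pair not without CLP replicate 2 (-1.10 and -1.01). With the mean of its probe sets Slc15a4 was -0.61, and after quantile normalisation again Myd88 was -0.89, both under the 2-fold limit.

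Of the members, Cox6a2 differed by 2.13 between CLP and LMPP (1.43 without CLP replicate 2 and 2.83 without CLP replicate 1), Siglech by 0.99, Pacsin1 by 0.27 and Bst2 by -1.05. Bst2 gave -1.92 when LMPP was held to replicates 1 and 2, which share the sex class of CLP. After quantile normalisation again 12 plasmacytoid genes were higher and 2 lower, and 38.1% of all called genes were higher, against 14.8% without it.

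Between GM and LMPP, 3 of 43 were higher in GM (3.49% of all genes), Tyrobp (1.59 ± 0.34), Irf8 (1.54 ± 0.35) and Zeb2 (1.28 ± 0.31), and with limma 0 were lower (0.817%; 6 at an unadjusted p under 0.05). None of the 3 was called when either GM array was left out. With the sex class as a block, 10 were higher and 12 lower, but no GM array shares a class with an LMPP array, so sex and group cannot be told apart here either. After quantile normalisation again 59.6% of all called genes were higher, against 81.0% without it. The members differed by 0.16 (Bst2), -0.03 (Pacsin1), -0.21 (Siglech) and -0.66 (Cox6a2).

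The replicates of a group varied together in some of these genes. Within PreB, replicates 3 and 4 exceeded replicates 1 and 2 by 1.76 for Siglech and by 2.07 for Cox6a2 (1457633_x_at, 0.26 with 1417607_at), but not for Bst2 (-0.40). On the same arrays the NK cell list had a median difference of 1.21 and the neutrophil granule list 4.47, the monocyte and macrophage list 1.74, the B cell list -1.06 and the interferon-stimulated list -0.91. The plasmacytoid surface receptors had a median of 1.15, with 5 of 9 at least 2-fold higher. Over the 43 plasmacytoid genes the median was -0.01, with 8 at least 2-fold higher and 11 at least 2-fold lower. PreB replicates 3 and 4 carry Eif2s3y and replicates 1 and 2 Xist. What these differences contributed to the Siglech values was not tested.

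Within ProB, replicate 2 exceeded replicate 1 by 0.72 for Siglech, 1.17 for Bst2, 0.60 and 1.67 for Pacsin1 (1449381_a_at and 1449380_at), and 0.06 and 0.01 for Cox6a2. The 43 plasmacytoid genes had a median of 0.47, and 12 were at least 2-fold higher in replicate 2, which held for 6.3% of all genes. The NK list differed by a median of -0.07, the B cell list by -1.05 and the neutrophil granule list by 4.77. Within LMPP, Bst2 was 1.45 higher on replicates 1 and 2 than on replicates 3 to 5. Between the same arrays the interferon-stimulated list differed by a median of -0.08 and the neutrophil granule list by -1.21. Of the 9 granule genes, 5 were at least 2-fold lower and 2 at least 2-fold higher. The granule gene Ngp was low on replicate 3 too (5.05), against 10.3 and 10.5 on replicates 4 and 5. LMPP replicates 1 and 2 carry Eif2s3y alone and replicates 3 to 5 carry both Xist and Eif2s3y. What this contributed to Bst2 was not tested.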

How the data were processed

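RNA of 2000 cells per sample was put through dual amplification and hybridised, and per the labels' design text the authors used RMA. The deposited table holds an intensity for each probe set and array, unlogged and with no detection calls. The software version is not given in the sources used here. The median intensity of an array was 13.8 to 16.9, and replicates correlated at 0.928 to 0.997.

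Log2 was taken with no pseudocount. Of 45101 probe sets, 34958 had 1 gene symbol in the platform annotation. The brightest over all arrays stood for a gene, and the 13949 genes above 3.889, the overall log2 median, in at least 1 group mean were kept. A model of 17 group means was fitted to 47 arrays (30 residual degrees of freedom, two-sided tests) with limma 3.58.1 in R 4.3.3. On simulated data it recovered 79 to 93% of genes changed by 1.5 (log2) and 97 to 100% of those changed by 3, by comparison, called 2 to 8 unchanged genes, and gave 0 a wrong direction.

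The members and gene lists were chosen with earlier results of these data known. Named are the members, called list genes in order of size, list genes needed to account for a count, and the 5 most correlated genes of each member (10 for the mean). Alternatives were the mean of probe sets, no or a stricter filter (5.968), quantile normalisation again, centring, a floor of 16, a trended robust spread, the replicate number or the sex class (Xist over 7, Eif2s3y over 5) as a block, models holding just the pair of groups in question, and each array left out in turn. The comparison with NKmature, fits within a sex class and those without PreB replicates 3 and 4 were chosen after seeing the data. Of the listed genes, 7 had no single-symbol probe set.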

Additional observations from a re-analysis of the deposited data

Results flagged for a closer look

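Groups of 4 or 5 arrays were checked for an array far from the rest, over 18 groups of member probe sets and 129 groups of plasmacytoid list genes. Chance marks about 1 in 20 such groups. No member probe set was marked. Tcf4 read 9.03 on LMPP replicate 3, below the other LMPP arrays. Bcl11a read 11.02 on MkE replicate 3, above the other MkE arrays. Rnase6 read 7.77 on PreB replicate 1, above the other PreB arrays.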

How the results depend on the processing

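The ProB levels of Siglech, Bst2 and Pacsin1 moved by less than the spread between replicates with probe set means, quantile normalisation again, centring and a floor, while Cox6a2 (11.74) gave 10.93 with probe set means and 11.70 with centring. Counts of called plasmacytoid genes stayed within 1.5 times under all settings tried except the following, whose cause was not tested. For CLP minus LMPP, quantile normalisation again gave 12 higher and 2 lower, and probe set means 2 lower. For PreB minus ProB, 1 was higher in a fit of these groups alone, and 5 under the sex block, within the shared class or without PreB replicates 3 and 4. For GM minus LMPP the sex block gave 10 higher and 12 lower, and for ProB minus NKmature probe set means gave 0 lower (2 at an unadjusted p under 0.05 in limma with the brightest probe sets). Leaving out 1 array gave 4 to 7 higher and 2 to 5 lower for CLP minus LMPP (7 higher without LMPP replicate 4 or 5, 2 lower without CLP replicate 2), 27 to 29 and 1 to 2 for ProB minus CLP (2 lower without CLP replicate 2 or ProB replicate 1), 0 to 4 and 24 to 28 for PreB minus ProB (0 higher without ProB replicate 1), 0 to 3 and 0 to 1 for GM minus LMPP (0 higher without either GM array, 1 lower without LMPP replicate 3), 6 to 11 and 1 for LMPP minus LTHSC, and 29 to 32 and 1 for ProB minus NKmature. Single genes changed sign in 6 cases, Kmo in CLP minus LMPP without CLP replicate 1 (-0.135, against 2.385 without CLP replicate 2), Ptprs in ProB minus CLP with probe set means (-0.15), Ly6d in PreB minus ProB with the sex block, within the shared class and without PreB replicates 3 and 4 (0.06 each), and Slc15a4 in ProB minus NKmature with the sex block (-0.17). In 77 further cases a gene kept its direction and lost its call, and in 1676 it kept both. Deviations of same-numbered arrays correlated at -0.13 and 0.12 for CLP with LMPP and 0.06 and 0.06 for ProB with CLP. For PreB with ProB they correlated at -0.06 and 0.32. In a group of 2 arrays the deviations mirror each other, so these values cannot decide whether the numbers pair the samples. With the replicate block, the counts were 6 higher and 3 lower for CLP minus LMPP, 30 and 1 for ProB minus CLP, 3 and 24 for PreB minus ProB, 3 and 0 for GM minus LMPP, 8 and 1 for LMPP minus LTHSC, and 31 and 1 for ProB minus NKmature. Centring moved the median of all genes in CLP minus LMPP from -0.10 to -0.27 and in ProB minus CLP from 0.08 to 0.23. Values near the filter level carry no detection call, so low levels of Pacsin1 and Siglech outside ProB have no order.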
